A study of Mus musculus with 23 samples.

Results

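The Cd4 locus was examined in naive CD4+ T cells: Cd4 (gene 12504, mm10 chromosome 6, 124864693 to 124888247, 23555 bp) with 100 kb on each side, from 124764693 to 124988247. The locus was selected on the same deposited peak lists described here, in which a wide R-loop interval and a DDX55 interval lie in Cd4, so positions and widths are given as a description and no test was made of them. The window held 12 of the 29404 intervals of the 4 deposited lists: 1 R-loop, 1 DDX55, 8 RNA polymerase II and 2 H3K9me3 intervals. Cd4 itself met 7 of them, with at least 1 from every list.

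The profiles were made by CUT&Tag, in which an antibody directs a transposase to cut the DNA beside its target, on cells of spleen and lymph nodes (pLN). They came from DDX55 KO mice and WT mice. For each of H3K9me3, RNA polymerase II and DDX55 (a DEAD-box RNA helicase) there were 2 KO and 2 WT samples. R-loops, which are DNA-RNA hybrids, were profiled with the antibody S9.6 on 2 KO and 2 WT samples treated with 20 U of RNase H and on 2 KO and 2 WT samples without it. The 2 HA-tag samples and the single IgG sample, all labelled WT, name no list. Every list pools the samples of both genotypes, and the R-loop list also those with and without RNase H. It holds positions only, with no height and no value per sample, so depth is unknown. Differences between KO and WT, the effect of RNase H and replicate error could therefore not be measured at Cd4. The labels call the mutant only DDX55 KO. The sources used here do not name the driver or the construct of the deletion, so interval borders were not compared with a knockout design. Merged intervals also cannot tell the endogenous gene from any introduced copy of Cd4 sequence. The sources used here do not say whether the mice carried such a copy, and its part in the intervals was not tested.

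Cd4 encodes the coreceptor that helper T cells use to bind MHC class II together with the T cell receptor, and its cytoplasmic tail carries the kinase LCK to the receptor. The mouse gene is transcribed toward lower coordinates, so its 5′ end is the border at 124888247. A promoter at that end, a proximal enhancer upstream and a silencer in the first intron control it. The silencer is bound by RUNX factors and keeps the gene off in double-negative thymocytes and CD8 T cells. R-loops form where nascent RNA stays paired with its template, H3K9me3 marks heterochromatin, and RNA polymerase II intervals mark engaged polymerase.

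The R-loop interval filled the 5′ part of Cd4. It ran from 124879678 to 124888212 and was 8535 bp wide, against a median of 524 bp over the 1473 R-loop intervals of chromosomes 1 to 19, X and Y. Its upstream border lay 35 bp inside the 5′ end of the gene and its downstream border lay 8569 bp from it. It covered 36.2% of the gene. The remaining 14985 bp toward the 3′ end met no interval of any list, and neither did the outermost 35 bp at the 5′ end, so 15020 bp of Cd4 lay under none.

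RNA polymerase II intervals covered Cd4 as a row of 4, and each lay wholly inside the R-loop interval. Counted from the 5′ end, the first was 2180 bp wide and spanned 1151 to 3330 bp from that end. The second was 1371 bp (3826 to 5196 bp), the third 461 bp (5899 to 6359 bp) and the last 899 bp (7503 to 8401 bp). The gaps between them were 495, 702 and 1143 bp. The first interval was wide for its list: 0.477% of the 10898 RNA polymerase II intervals were at least as wide, and the median was 638 bp. Together the 4 intervals covered 4911 bp, which is 57.5% of the R-loop interval and 20.8% of the gene. No RNA polymerase II interval reached the 5′ end itself. The nearest border was 1151 bp inside the gene, while the R-loop interval continued a further 1116 bp toward the promoter.

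DDX55 and H3K9me3 intervals lay at the inner end of the R-loop interval. The DDX55 interval was 440 bp wide (124880087 to 124880526), near its list's median of 432 bp. It lay wholly inside the last RNA polymerase II interval and began 409 bp from the inner R-loop border. The H3K9me3 interval was 287 bp wide (124879917 to 124880203), narrower than most, since 94.9% of the 16474 H3K9me3 intervals were at least as wide. It was also inside the last RNA polymerase II interval and shared 117 bp with the DDX55 interval, 26.6% of the DDX55 width. All 4 lists overlapped in those 117 bp, from 124880087 to 124880203. With only the wider 50% of the H3K9me3 list, 0 H3K9me3 intervals lay in Cd4 and the overlap of all 4 lists was lost. Thus the R-loop and RNA polymerase II intervals extended over the 5′ part of the gene, whereas DDX55 and H3K9me3 were each listed at 1 narrow place more than 7 kb from the 5′ end.

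**Figure D1:**
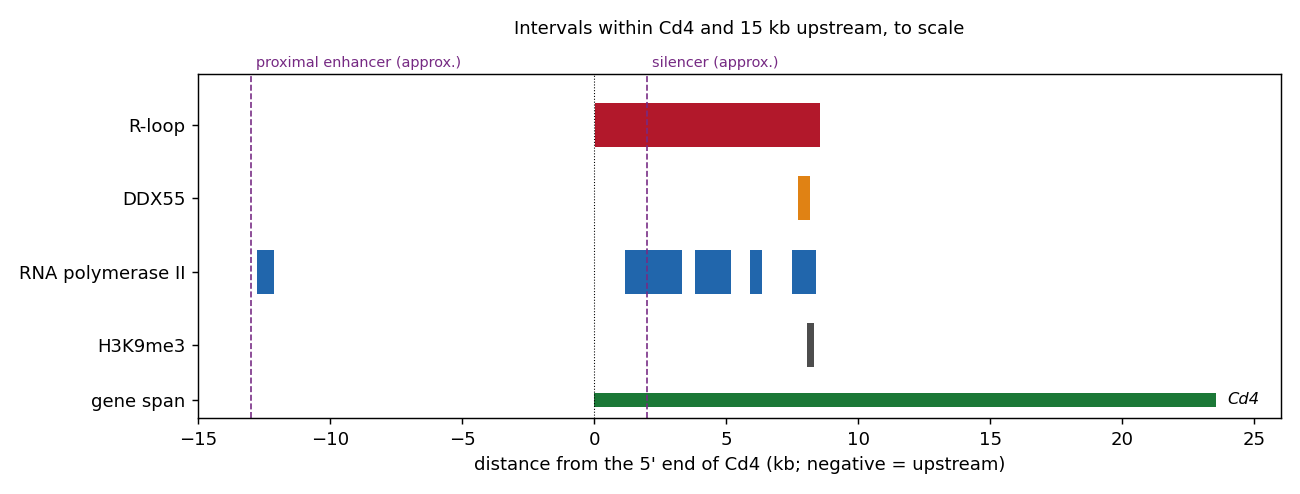
Intervals of the 4 lists over Cd4 and 15 kb upstream, to scale, against distance from the 5′ end in kb (negative is upstream). Dashed lines mark the approximate literature positions of the proximal enhancer and the silencer. The 8535 bp R-loop interval contains all 4 RNA polymerase II intervals of the gene, and the 440 bp DDX55 and 287 bp H3K9me3 intervals sit near its inner border.

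The intervals were set beside the known control elements of Cd4, whose positions come from general knowledge of the gene, rounded to the kb, and are not in the files. The silencer, about 2 kb downstream of the start, fell inside the R-loop interval and inside the first, 2180 bp RNA polymerase II interval. The DDX55 and H3K9me3 intervals were 5.72 and 6.04 kb from that point. The proximal enhancer, about 13 kb upstream, had an RNA polymerase II interval 0.21 kb away. This interval was 639 bp wide, met no annotated gene, and spanned 12.15 to 12.79 kb upstream of Cd4, between Cd4 and Lag3. The R-loop interval ended 13.04 kb from the enhancer point, so no R-loop, DDX55 or H3K9me3 interval was listed there. With positions known only to the kb, closeness is all that these distances state.

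Of 19 annotated genes of the window besides Cd4, 5 met an RNA polymerase II interval and 0 met an R-loop, DDX55 or H3K9me3 interval. Among the 13 protein-coding ones, 4 met RNA polymerase II (30.8%), near the 32.2% of all protein-coding genes. Over all protein-coding genes 1.59% met R-loop, 0.324% DDX55 and 5.4% H3K9me3 intervals, so a count of 0 in 13 says nothing particular about these neighbours. Lag3, the Cd4-related inhibitory receptor that also binds MHC class II, lies 16111 bp beyond the 5′ end of Cd4 and met no interval, the nearest being the one beside the enhancer at 3322 bp. On the other side, Gpr162, an orphan receptor gene that ends 497 bp from Cd4, shared a narrow RNA polymerase II interval of 226 bp with the overlapping noncoding gene Gm32404. Reads of these overlapping genes cannot be assigned to either from position alone.

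A 1319 bp RNA polymerase II interval (124828808 to 124830126) bridged the border of Usp5, a deubiquitinase gene, and Cdca3, a cell-cycle gene, with 677 bp in Usp5 and 597 bp in Cdca3. Cops7a, a COP9 signalosome subunit gene, had a 231 bp interval 100 bp from an annotated start. Tpi1 (a glycolytic enzyme), Eno2 (neuronal enolase), Gnb3 (a G protein beta subunit), P3h3 (a collagen prolyl hydroxylase), Mlf2, Ptms (parathymosin), Lrrc23 and Spsb2 met none, nor did the noncoding genes Gm38894, Gm38895, Gm38896, A230083G16Rik and Gm23851. The second H3K9me3 interval, 665 bp wide (124951546 to 124952210), met no gene and lay 6235 bp from Cops7a. A gene without an interval had none in the merged list, which does not show that the polymerase was absent.

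**Figure D2:**
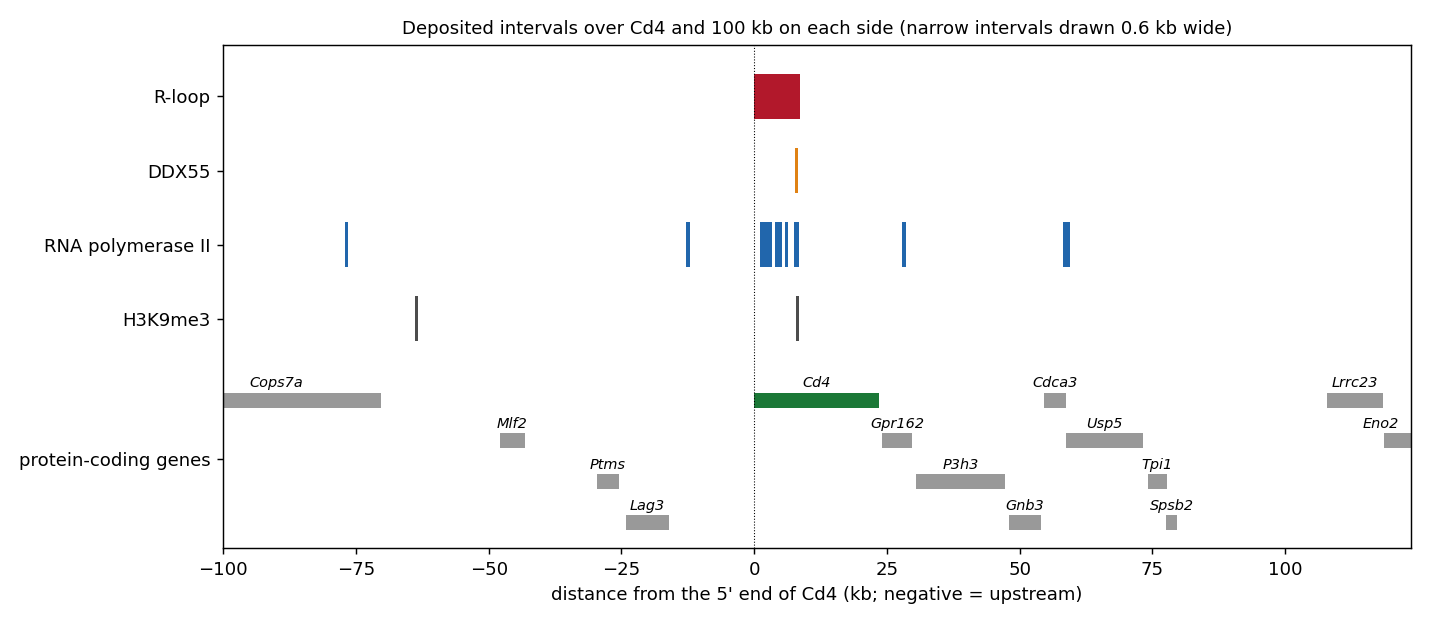
The 12 intervals of the window and its 14 protein-coding genes, against distance from the 5′ end of Cd4 in kb (negative is upstream). Narrow intervals are drawn 0.6 kb wide. Cd4 is the gene that met intervals of all 4 lists, and the other genes that met any met RNA polymerase II intervals alone.

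Start-site sequence from RefSeq (GRCm38.p6) covered 13 of the 20 genes of the window, and Cd4, Lag3, Usp5, Gpr162, Gnb3, Gm38895 and Gm23851 were not among them. The Cdca3 window is shown because the neighbouring 1319 bp RNA polymerase II interval stops inside it. It is the plus strand of chr6:124829926-124830225, with the start site of this window at 124830176. The 201 bases in capitals lie under the interval, whose border is 50 bp before that start site. The gene span of Cdca3 begins before this site, at 124829530, and the interval covers that outer end of the gene.
Cdca3: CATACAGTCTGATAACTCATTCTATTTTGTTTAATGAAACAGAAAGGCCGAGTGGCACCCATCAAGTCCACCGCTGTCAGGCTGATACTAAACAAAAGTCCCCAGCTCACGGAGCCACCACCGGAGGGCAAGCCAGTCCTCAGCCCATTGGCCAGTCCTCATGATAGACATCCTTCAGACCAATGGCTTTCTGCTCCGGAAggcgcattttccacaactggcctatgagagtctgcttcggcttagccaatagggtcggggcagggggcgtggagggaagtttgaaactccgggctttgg
Its GC content was 53.3%, against a median of 52.7% over all 32851 start windows of the table. Motifs bound by factors that control Cd4, and TATAAA, were searched on both strands of this Cdca3 window. No Cd4 sequence was available, so the matches say nothing about the control elements of Cd4. The Ets core GGAAG matched 2 times (present in 71.4% of all windows), the Myb core AACNG 2 times (80.3%) and the E box CANNTG 1 time (72.3%). The RUNX core TGTGGT (16.8%), the MAZ-like GGGAGG (42.4%) and TATAAA (13.6%) had 0 matches in these letters.

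Among all genes, Cd4 was 1 of few that met an R-loop or a DDX55 interval. Of 21887 protein-coding genes, 1.59% met an R-loop interval, 0.324% a DDX55, 32.2% an RNA polymerase II and 5.4% an H3K9me3 interval. With 100 kb added on each side, the shares were 7.42% for R-loop, 1.54% for DDX55, 67.6% for RNA polymerase II and 27.1% for H3K9me3. Cd4 was the sixth gene by the share of its span under R-loop intervals, at 36.2%, where the 348 genes that met one had a median of 0.427%. These shares chose the locus and support nothing further. Cd4 also met 4 RNA polymerase II intervals, and 0.923% of genes met as many or more. Those genes had a median length of 116577 bp, and 9, Cd4 included, were no longer than Cd4. By the share of the gene under RNA polymerase II intervals, Cd4 ranked 408 of the 21887.

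The R-loop interval of Cd4 was sixth in width of 1473. Of the intervals of 5 kb or wider, 13 in number, 6 met a protein-coding gene and 4 met an RNA polymerase II interval. The 5 widest that met a gene were, beside Cd4, those of the dynamin gene Dnm3 (9249 and 5626 bp), the dopamine beta-hydroxylase gene Dbh (8007 bp) and Gm52481 on chromosome Y (5955 bp). The Cd4 interval had 57.5% of its width under RNA polymerase II and 3.36% under H3K9me3, against 42.0% and 69.9% of the Gm52481 interval. The Dnm3 and Dbh intervals met no interval of the other lists. The border distance was added after its value at Cd4, 35 bp, was seen, and is given as a description. Of 472 R-loop intervals that met a protein-coding gene, 7 had a border within those 35 bp of a gene border, Cd4 included. The median distance was 30108 bp. That is more than the 23555 bp of Cd4, so no interval inside Cd4 could reach it, and the median is no measure of how unusual Cd4 is.

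**Figure D3:**
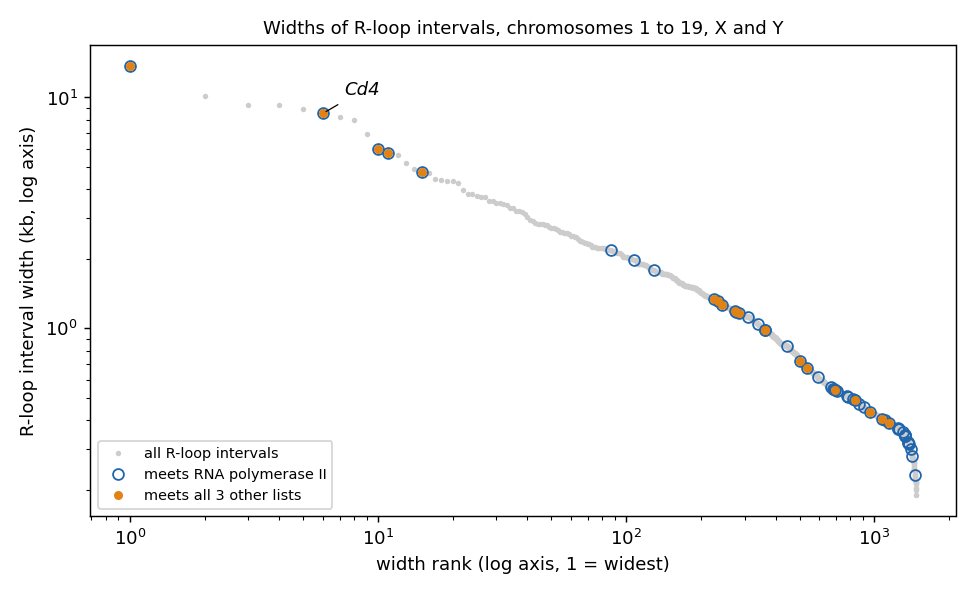
Width of each of the 1473 R-loop intervals in kb against its width rank, both on log axes. Open circles meet an RNA polymerase II interval and filled points meet all 3 other lists. Cd4 has rank 6, and 3 of the other 12 intervals of 5 kb or wider meet all 3 lists.

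Of the R-loop intervals, 3.46% (51) met an RNA polymerase II interval, and these 51 had a median width of 541 bp. The RNA polymerase II intervals totalled 7.95 Mb, and the share expected from that length was not computed. The 3.46% therefore does not show whether R-loop and RNA polymerase II intervals avoid each other. By gene, 121 of the 348 that met an R-loop interval also met RNA polymerase II, beside 32.2% of all protein-coding genes. More than 1 RNA polymerase II interval was met by 4 R-loop intervals, with 4 at Cd4 and at most 3 elsewhere. All 3 other lists were met by 1.36% of R-loop intervals (20), Cd4 and 19 others. At Cd4, H3K9me3 covered 3.36% of the R-loop interval and DDX55 covered 5.16%. In the 19 others, H3K9me3 intervals covered between 27.7% and 100% of the width, and 13 were covered wholly. Thus the overlap of 4 lists at Cd4 consisted mainly of R-loop and RNA polymerase II, whereas the other such places were mostly under H3K9me3. The 19 others had a median width of 1168 bp against 8535 bp at Cd4, so an H3K9me3 interval of like width covers a larger share of them. The widest of the others were also mostly covered: 13682 bp at 100%, 5955 bp at 69.9%, 5753 bp at 98.6% and 4734 bp at 100%. The part of width in the low share at Cd4 was not tested. Whether reads of repeated sequence are misplaced at these places was not tested.

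**Figure D4:**
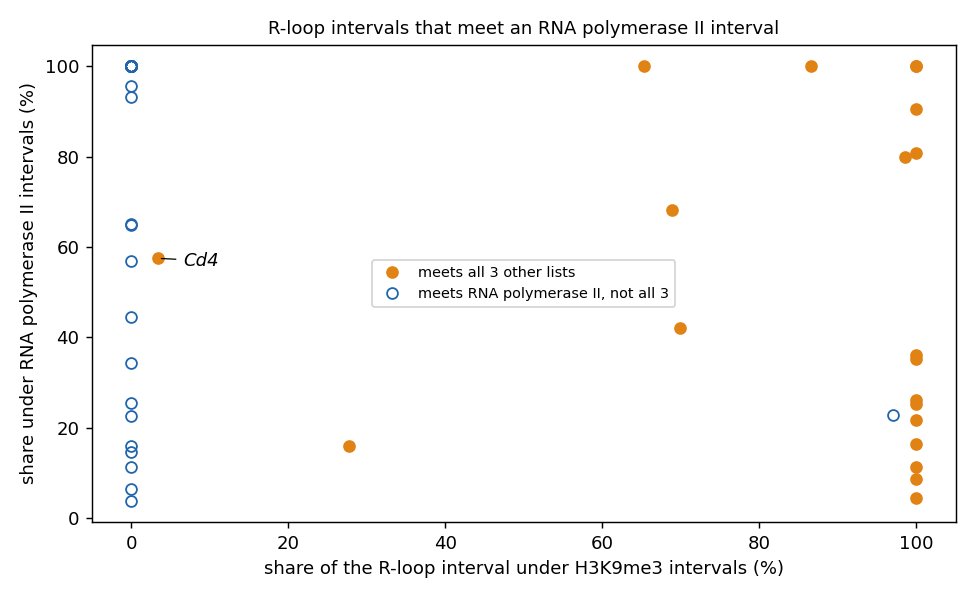
Each point is 1 of the 51 R-loop intervals that met an RNA polymerase II interval, placed by the share of its width under H3K9me3 (x, %) and under RNA polymerase II (y, %). Filled points met all 3 other lists. Cd4 is at 3.36% and 57.5%, and the 19 other filled points are at 27.7% or more on the x axis.

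The genes most like Cd4 were taken as those that met R-loop, DDX55 and RNA polymerase II intervals, ordered by the share under R-loop, of which there were 8 with Cd4. LOC100504180 (38.3%) and Duxf3 (37.3%) on chromosome 10 and Gm51572 (31.7%) on chromosome 8 had like shares but spans of 3430, 3585 and 3099 bp and 1 RNA polymerase II interval each. Duxf3 belongs to a repeated double homeobox family, so reads of near-identical copies may be misplaced there. Sfi1 (1.95%), which encodes a centrosomal protein and met 8 DDX55, 8 RNA polymerase II and 13 H3K9me3 intervals, and Ddx60 (0.362%), a DEAD-box gene of the antiviral response with 1 RNA polymerase II interval, followed. The remaining pair, named after their values were seen, were Jarid2 (0.204%) with 5 RNA polymerase II intervals and Peak1 (0.2%) with 2. Sfi1 and Jarid2 thus met more RNA polymerase II intervals than the 4 of Cd4, in spans of 71498 and 190870 bp. Likeness here rests on 1 merged list per target and not on samples.

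With the full RNA polymerase II list, intervals lay in most of the 15 listed genes that work with the CD4 coreceptor. Of 15 coreceptor complex genes, Cd4 included, 11 met an RNA polymerase II interval (73.3%, exact 95% interval 44.9 to 92.2, which covers counting error only), beside 32.2% of all protein-coding genes. With only the wider 50% of the RNA polymerase II list, 7 of the 15 met one. Gene length was not matched in this comparison, and the list of genes was chosen with earlier results known. The median number of RNA polymerase II intervals was 1 per listed gene and 0 per gene overall. Ptprc, which encodes the phosphatase CD45, met 12 and Cd247, the zeta chain gene, met 7, in spans of 112898 and 91202 bp. Per length, 20.8% of Cd4 lay under RNA polymerase II intervals, against 4.28% of Lck, which encodes the kinase bound to CD4, 18.6% of the CD3 chain gene Cd3d and 2.16% of the kinase gene Zap70. Lck and Cd3d met 2 intervals each and Zap70 met 1. The CD2 receptor gene Cd2 and the inhibitory kinase gene Csk met 2 each. Cd3e, Cd5 and Cd6 met 1 each. Cd8a and Cd8b1, the genes of the other coreceptor, Cd3g and the adaptor gene Lat met 0. R-loop, DDX55 and H3K9me3 intervals each met 1 of the 15 genes, namely Cd4, which was chosen from these lists. Over all protein-coding genes the shares were 1.59% for R-loop, 0.324% for DDX55 and 5.4% for H3K9me3. The lack of such intervals in the other listed genes therefore says nothing particular about them.

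Of 26 genes for regulators of Cd4, 21 met an RNA polymerase II interval (80.8%, exact 95% interval 60.6 to 93.4), beside 32.2% of all protein-coding genes. Gene length was not matched here either. The chromatin organiser gene Satb1 met 12, Ikzf1, which encodes the zinc finger factor Ikaros, met 9 and Ets1 met 8. The related HMG-box factor genes Lef1 and Tcf7 met 11 and 6, the second over 16.1% of its span. Runx1 met 6 and Runx3 met 1, and these encode the factors that bind the silencer. Elf1 met 4, Bcl11b, Tet3 and Tox 3 each, and Tcf12, which encodes the E protein HEB, met 2. The chromatin remodelling genes Smarca4, Smarce1 and Chd4, the DNA methyltransferase genes Dnmt1 and Dnmt3a, and Tet2, Tcf3, Patz1 and Maz met 1 each. Zbtb7b, which encodes the helper lineage factor ThPOK, Gata3, Myb, Cbfb and Uhrf1 met 0. Tox had the R-loop interval of this list, 499 bp, and 0 of the 26 met a DDX55 or an H3K9me3 interval. Over all protein-coding genes the shares were 1.59% for R-loop, 0.324% for DDX55 and 5.4% for H3K9me3, so these counts are near the background.

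**Figure D5:**
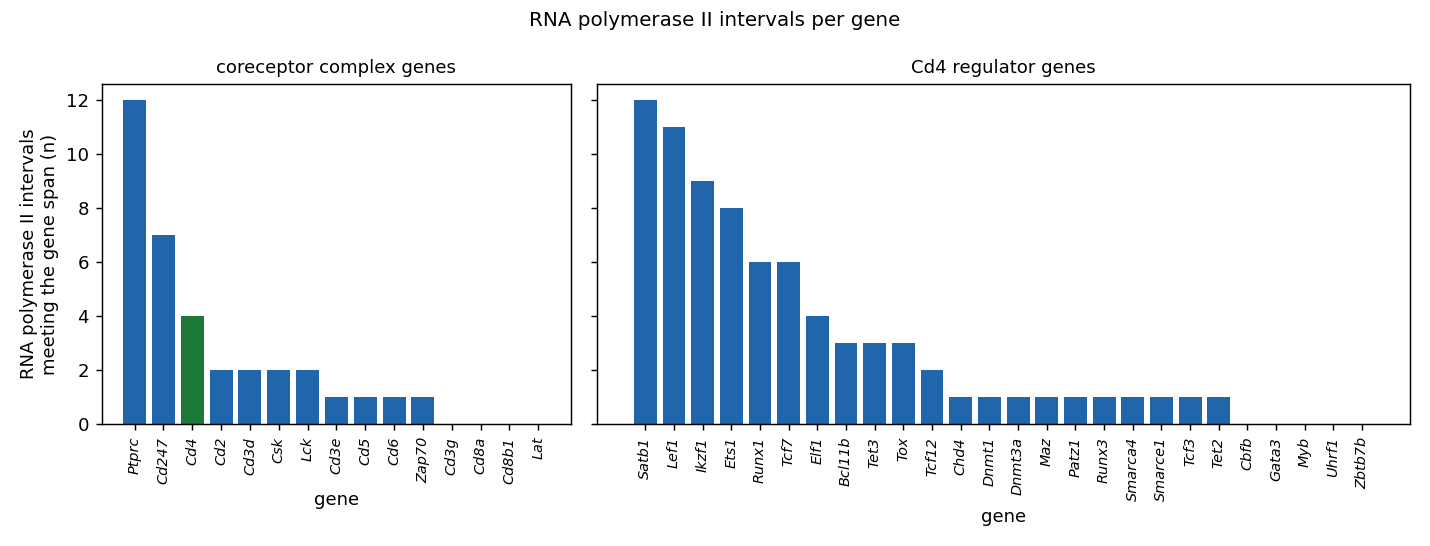
Bars give the number of RNA polymerase II intervals that meet each gene span, for the 15 coreceptor complex genes (left, Cd4 in green) and the 26 Cd4 regulator genes (right). Cd4 has 4, below Ptprc with 12 and Cd247 with 7, and 4 genes on the left and 5 on the right have 0.

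The label of the cells was checked against marker genes by RNA polymerase II intervals. The naive CD4 T cell markers Cd4, Cd3d, Cd3e, Ccr7, Lef1, Tcf7 and Il7r met at least 1 each. None of 2 CD8 T cell, 4 B cell and 2 NK cell markers met one, and Cd68 was the 1 of 3 myeloid markers that did. With 32.2% of all protein-coding genes meeting one, such short marker lists do not show that those cell types were absent. Intervals are not expression levels, and fewer cells of a type cannot be told apart from less signal per cell in a merged list.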

How the data were processed

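CUT&Tag was carried out on 23 samples. The authors deposited 1 merged interval list for each of 4 targets, with none for HA or IgG. These lists hold another kind of value: interval starts and ends in bp. The submitters' processing notes name MACS3 (3.0.0b1), Bowtie2 (2.5.0), fastp (0.12.4), ChIPseeker (1.30.3), SAMtools (1.15.1) and the build mm10. The sources used here do not state peak thresholds, the merging rule, the use of controls or spike-in DNA, or whether samples came from separate mice.

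Starts were shifted to 1-based. An overlap was at least 1 bp. Genes came from a RefSeq table of GRCm38.p6, whose coordinates are those of mm10; it lists no strand or exons. Comparisons kept to chromosomes 1 to 19, X and Y. Python 3.11.15, numpy 2.4.6, pandas 2.3.3, scipy 1.17.1 and matplotlib 3.10.9 were used. Counts of genes were checked with bedtools 2.31.1 and the code was tested on simulated data. Members, gene lists and measures were chosen with earlier results of these data known. Genes were named by rule: all in the window, both gene lists, the markers, the genes of the 5 widest R-loop intervals and those most like Cd4. The border distance was added after its value was seen. Signal per sample was not analysed here. 1 planned marker gene is not reported here.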

Additional observations from a re-analysis of the deposited data

How the results depend on the processing

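The count of R-loop and of DDX55 intervals was 1 with flanks of 50 and 200 kb, with the whole interval required inside, and with the wider 50% of each list. The R-loop bp over Cd4 and the width rank of 6 did not change when intervals up to 1 kb apart were joined. Among intervals that meet a protein-coding gene the rank was 2. RNA polymerase II intervals in the window numbered 15 with a flank of 200 kb and 5 in the wider 50% of the list, against 8. H3K9me3 intervals numbered 1 with a flank of 50 kb, the one in Cd4, and 1 in the wider 50%, the one of 665 bp outside genes, against 2. The wider 50% thus left 0 H3K9me3 intervals in Cd4 and no overlap of all 4 lists there. The share of the R-loop interval under RNA polymerase II was 71.6% with joined intervals and 52.1% with the wider 50%, against 57.5%. With the wider 50% of the lists, 147 genes met R-loop, 30 DDX55 and 4634 RNA polymerase II intervals, against 348, 71 and 7040, as fewer intervals were used, and 7 coreceptor complex genes met RNA polymerase II against 11. The other alternatives moved a count by no more than 1.5 times. No paired analysis was possible because the lists merge the samples. Depth is unknown and limits every statement that an interval was not listed.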
